A study of Mus musculus with 6 samples.

Results

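The genes described here are 10 members of the cellular response to low oxygen and of glycolysis, followed across the cell types and genotypes of the embryonic mouse retina. They are Slc2a1, Ldha, Aldoa, Pfkfb3, Pdk1, Bnip3, Ndufa4l2, Egln3, Vegfa and Ankrd37, taken by name from the 27998 genes of the count matrix, and all 10 were found in it. Ankrd37 and Ndufa4l2 were selected on their UMI counts, which differed between libraries, so their levels are given as a description with no test. The other 8 were tested.

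Retinas at embryonic day 14 (E14) were dissociated and profiled by droplet single-cell RNA sequencing (10x Genomics 3′ chemistry, version 2), in which the 3′ end of each captured transcript carries a unique molecular identifier (UMI). The labels give 3 genotype groups of 2 libraries each. They are Bax het Atoh7 null, Bax null (with no Atoh7 mutation named in the label) and Bax null Atoh7 null, called double null below. The product of Bax carries out programmed cell death at the mitochondrion, and Atoh7 is a transcription factor that acts in ganglion cell formation. All 3 groups therefore carry a Bax mutation on 1 or both alleles, 2 of the 3 lack Atoh7, and no group has both genes intact. The labels used here do not give the strain, whether the alleles act in all cells, or how many embryos went into a library, and nothing says that the 2 libraries of a group came from separate embryos, so p-values measure only the spread between these libraries. The authors assigned the 67050 cells to 5 types, namely retinal progenitor, neurogenic, ganglion, cone and horizontal cells. In each type the summed marker list of that type was higher than in the other 4. Cells labelled ganglion numbered 667 and 1056 in Bax het Atoh7 null, 1153 and 1138 in double null, and 1772 and 1571 in Bax null.

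When oxygen is plentiful, prolyl hydroxylases mark the alpha subunits of hypoxia-inducible factors (HIF) for destruction through the von Hippel-Lindau protein. When oxygen falls, the subunits persist and switch on genes for glucose uptake, glycolysis, vessel growth and the removal of mitochondria, along with the hydroxylase Egln3, which closes a feedback loop. The retina is also known for aerobic glycolysis, in which glucose is turned into lactate although oxygen is present, and progenitors are known to use it. Vessels do not grow into the mouse retina until about birth, so the embryonic retina is supplied from outside it and from the hyaloid vessels.

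HIF binds DNA at a short core motif, ACGTG or GCGTG, and the starts of these genes hold it often. Of the 9 members with a start site in the RefSeq table (GRCm38.p6), 9 had at least 1 match within the 250 bases before a start, and 6 had 2 or more. Matches on either strand were counted. The 2 matches of Vegfa lay before a start inside the gene, and the window before its upstream start held 0. Among all 27025 genes of that table the shares were 41.5% and 18.7%, and 12 of the 15 member windows held a match against 38.6% of 32851 windows. The sequences of 4 members are shown, each 5′ to 3′ on the gene's strand, lying before a RefSeq start site and without bases that an annotated exon covers. The windows of Ldha and Ankrd37 lie within the gene's span given below, since a longer annotated transcript of each starts further upstream. Capitals mark the matches (ACGTG and GCGTG, or CACGT and CACGC where the motif is on the other strand), and overlapping matches run together. They cover chr4:119108495-119108710 for Slc2a1 (plus strand), chr7:46845554-46845803 for Ldha (plus strand), chr7:138909520-138909756 for Bnip3 (minus strand) and chr8:45999868-46000100 for Ankrd37 (minus strand).
Slc2a1: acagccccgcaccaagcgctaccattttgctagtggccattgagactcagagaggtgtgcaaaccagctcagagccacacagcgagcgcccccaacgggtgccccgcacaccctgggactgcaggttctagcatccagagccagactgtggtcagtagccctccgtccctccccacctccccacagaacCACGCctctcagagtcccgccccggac
Ldha: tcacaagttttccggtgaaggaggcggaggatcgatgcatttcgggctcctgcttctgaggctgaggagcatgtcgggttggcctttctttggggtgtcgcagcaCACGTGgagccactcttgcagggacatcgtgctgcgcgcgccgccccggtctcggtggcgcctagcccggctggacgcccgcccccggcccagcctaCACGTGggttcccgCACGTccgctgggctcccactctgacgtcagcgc
Bnip3: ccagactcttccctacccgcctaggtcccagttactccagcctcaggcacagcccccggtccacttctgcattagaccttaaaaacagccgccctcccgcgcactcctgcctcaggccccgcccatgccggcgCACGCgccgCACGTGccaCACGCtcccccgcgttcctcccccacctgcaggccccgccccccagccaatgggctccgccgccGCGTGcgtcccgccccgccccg
Ankrd37: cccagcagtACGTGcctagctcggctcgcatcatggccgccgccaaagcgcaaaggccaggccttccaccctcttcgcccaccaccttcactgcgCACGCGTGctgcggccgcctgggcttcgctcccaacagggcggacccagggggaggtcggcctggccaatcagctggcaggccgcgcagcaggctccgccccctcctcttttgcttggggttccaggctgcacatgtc
Ldha and Bnip3 each held 5 matches, Ankrd37 showed 3 of the 4 in its window, and Slc2a1 showed 1 of 2, the others lying in bases left out because an exon covers them. CACGTG holds the motif on both strands and counts as 2 matches. A match is a description of the letters only.

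The 6 libraries differed in ways that touch every result below. Bax null libraries held 63085055 and 66594431 UMIs at a median of 5660.5 and 6804 UMIs per cell, against 22463515 to 33415227 UMIs and medians of 1634 to 2632 in the other 4. They also had 3.80% and 3.90% mitochondrial UMIs against 1.06% to 1.15%. Among genes with at least 20 CPM (UMI counts scaled to the library's total) in progenitors, 36 of 6266 were over 32-fold lower in double null than in Bax null, and none was that much higher. No batch is named in the labels, so in every comparison with the Bax null pair a difference of handling or counting and the genotype cannot be told apart. The labels were checked on the mutated genes: Atoh7 had 0 UMIs in the 4 Atoh7 null libraries and 5.96 and 6.88 CPM in the Bax null pair. Bax had 144 and 108 CPM for Bax het Atoh7 null, with 17.1 and 15 CPM for Bax null, but 47.7 CPM in the library labelled double null replicate 1 and 11 CPM in replicate 2. Which part of Bax is deleted is not given in the sources used here, so 3′ tags are a loose check. Those 2 double null libraries shared 2596 cell barcodes where 236.1 would be drawn at random, and 89.4% of the shared barcodes had the same cell type in both. They were 17.6% of the cells of replicate 1 and 22.0% of replicate 2. Their UMIs in replicate 1 over replicate 2 had a median ratio of 0.38 (quartiles 0.372 and 0.39). Of the shared barcodes 2363 had a ratio between 0.34 and 0.42, and 92.6% of these had the same cell type in both libraries. The other 233 had the same cell type in 57.5%, where 236.1 shared barcodes would be drawn at random. Whether the shared barcodes mark the same cells was not tested. The 2 libraries may thus not be independent, and p-values with double null may rest on too small a spread.

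The main differences lay between the Bax null pair and the other 4 libraries. In double null against Bax null, 21 of 33 tests of the 8 members over the 5 cell types passed an adjusted p of 0.05 by edgeR, 18 of them higher and 3 lower. The same rule called 43.7% of all gene-by-type tests in that comparison, 21.3% higher and 22.4% lower, so the members' share in itself is not far from the background while the direction is mostly upward. By type the calls were 7 of 8 in progenitors (background 53.9%), 6 of 8 in neurogenic cells (47.3%), 3 of 7 in ganglion cells (52.7%), 2 of 5 in cones (28.1%) and 3 of 5 in horizontal cells (29.2%). For Bax het Atoh7 null over Bax null, 18 of 33 tests were called, 15 higher and 3 lower, against 43.0% of all tests. There the calls were 5 of 8 in progenitors (53.1%), 5 of 8 in neurogenic cells (47.1%), 3 of 7 in ganglion cells (50.0%), 2 of 5 in cones (27.5%) and 3 of 5 in horizontal cells (30.2%). These 2 comparisons share the Bax null libraries, so each is given by its own values. The median log2 difference over the members' tests was 0.53 and 0.37, against 0.02 and 0.01 over all tests. These tests repeat the same 8 genes over cell types of the same libraries, so they are not independent of each other. The members, like the gene lists below, were chosen with earlier results of these data known.

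The scaling between libraries bears on the direction. Levels below are CPM of a cell type's UMIs after trimmed-mean (TMM) scaling, which centres the bulk of the genes. With plain library totals the median of all genes moved up by 0.44 to 0.63 on the log2 scale in the 2 comparisons with Bax null, and the members' calls became 25 higher and 1 lower in the first and 22 higher and 0 lower in the other. Over all genes in progenitors the calls went from 3596 higher and 3626 lower to 8903 and 920 in the first comparison, and from 3570 and 3549 to 8088 and 884 in the other. Changes are therefore given relative to the bulk of genes. Where a gene has a pair of differences from Bax null, that of Bax het Atoh7 null comes first and that of double null after it.

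**Figure D1:**
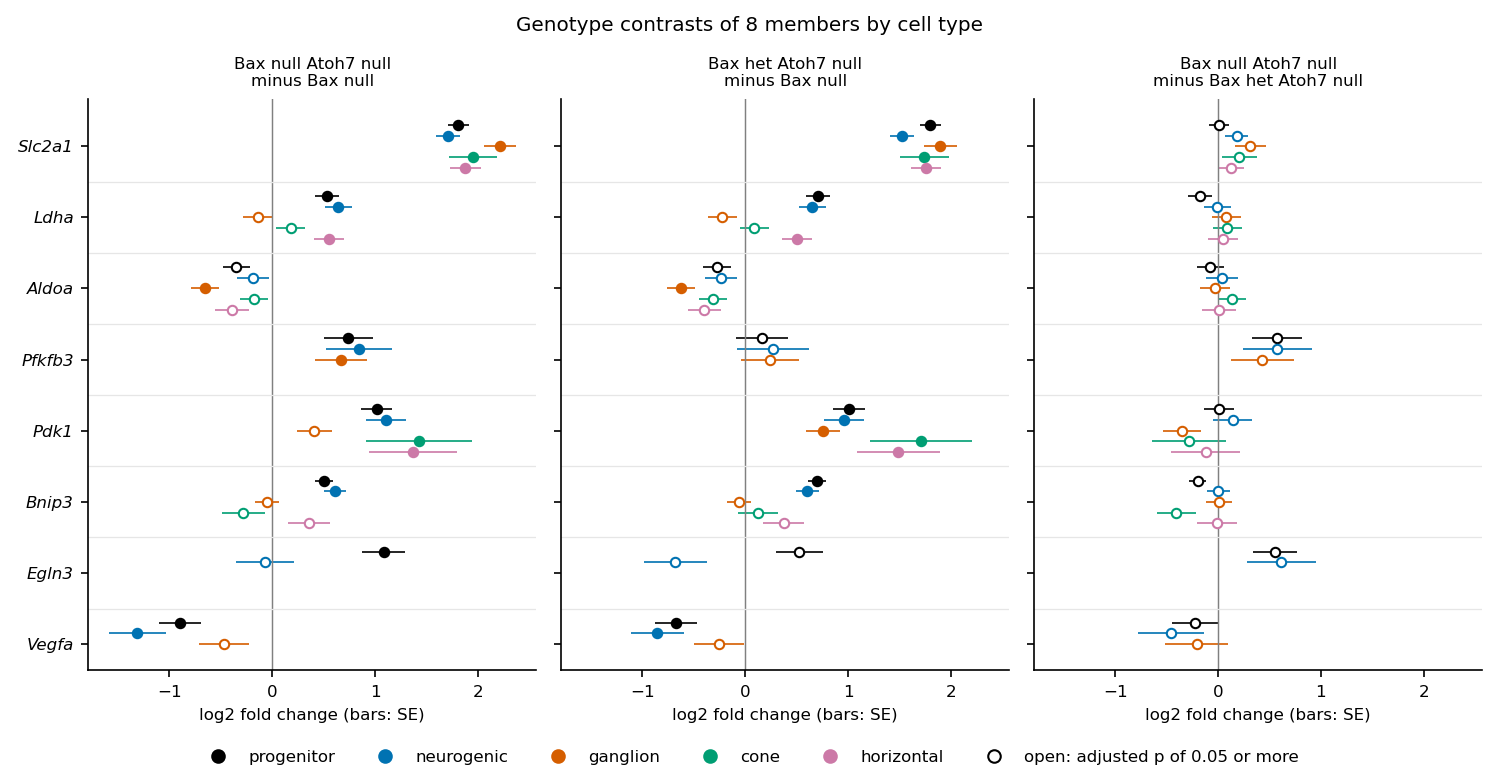
Log2 differences of the 8 tested members in each cell type for the 3 comparisons, as points with bars of 1 standard error, filled (not open) where the adjusted p is under 0.05. Slc2a1 lies between 1.53 and 2.21 in both comparisons with Bax null, while the comparison of the 2 Atoh7 null groups stays within 0.61 of 0.

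Slc2a1 (ENSMUSG00000028645, chr4:119108711-119137983, plus strand, GRCm38) encodes the glucose transporter GLUT1, the gate for glucose into neural progenitors. In progenitors its level was 503 and 434 CPM for Bax het Atoh7 null, 461 and 499.6 CPM for double null, and 137 and 134 CPM for Bax null. The 4 Atoh7 null libraries lay together and far above the Bax null pair. The log2 difference from Bax null was 1.80 (SE 0.10, edgeR adjusted p = 2.24e-06) in Bax het Atoh7 null and 1.81 (SE 0.10, adjusted p = 1.95e-06) in double null. Of the genes with at least 20 CPM in progenitors, 25 of 6255 and 13 of 6266 rose by as much or more in the same comparisons.

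The difference in Slc2a1 was seen in every cell type. Ganglion cells had 182 and 124 CPM for Bax het Atoh7 null, 200.2 and 176 CPM for double null, and 44.4 and 37.7 CPM for Bax null. Horizontal cells had 242 and 219 CPM, 256 and 242 CPM, and 74.1 and 59.8 CPM in the same order. In both types the Bax null pair lay below the other 4 libraries with no overlap. Neurogenic cells gave log2 differences of 1.53 and 1.71, and cones gave 1.74 and 1.95, each with both libraries above both. All 10 tests of Slc2a1 against Bax null passed, and all 10 kept their call under every 1 of 17 alternative settings.

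**Figure D2:**
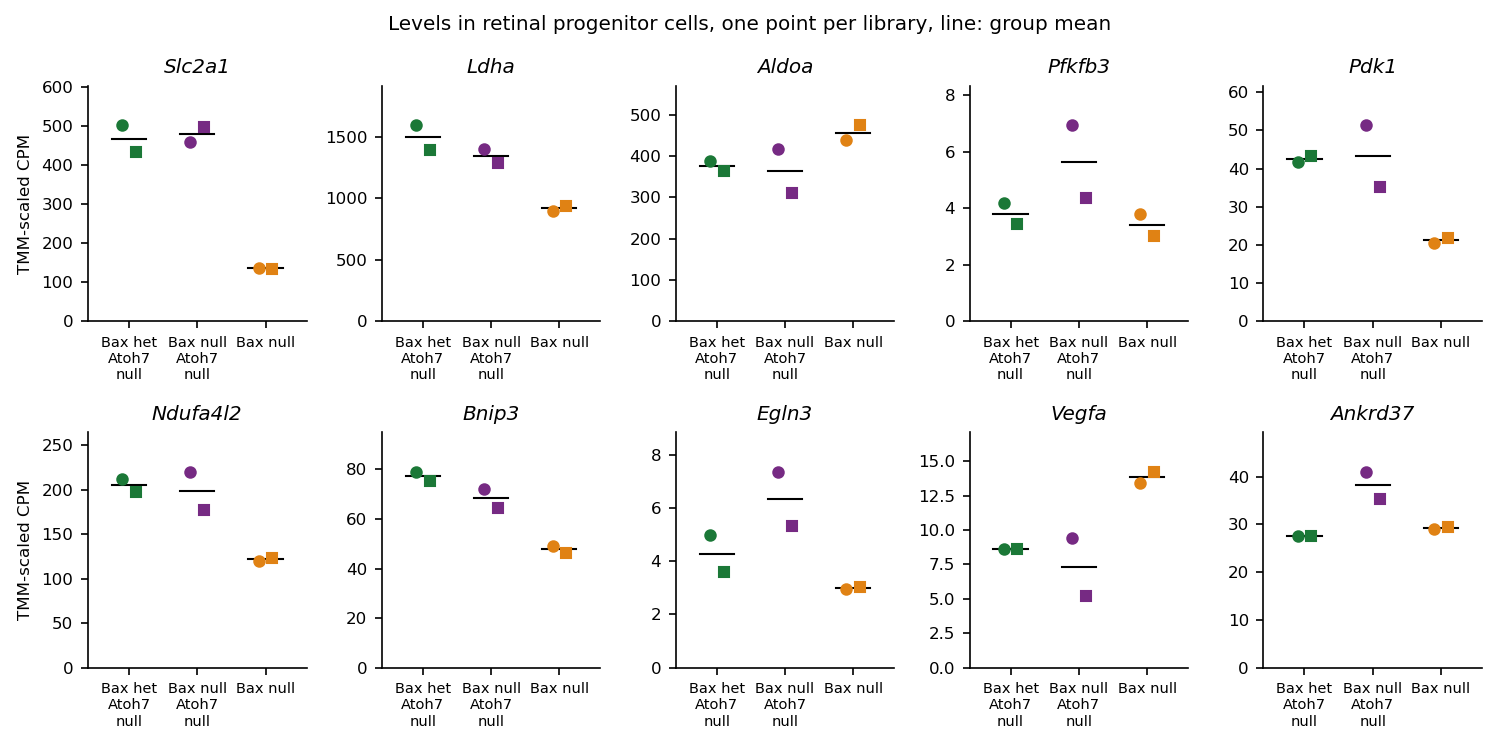
Level of each member in progenitors, 1 point per library, in CPM after TMM scaling, with a line at the mean of the 2 libraries of a group (circle, replicate 1; square, replicate 2). Slc2a1, Ldha, Pdk1, Bnip3, Egln3 and Ndufa4l2 have both Bax null libraries lowest, Vegfa has them highest, and Ankrd37 has both double null libraries highest.

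Ldha (ENSMUSG00000063229, chr7:46841475-46855627, plus strand) encodes the lactate dehydrogenase subunit that turns pyruvate into lactate, the last step of aerobic glycolysis. Progenitors had 1595 and 1395 CPM for Bax het Atoh7 null, 1405 and 1291 CPM for double null, and 898 and 940.0 CPM for Bax null. The log2 difference was 0.71 (SE 0.11, edgeR adjusted p = 0.000809) for Bax het Atoh7 null and 0.53 (SE 0.11, adjusted p = 0.00368) for double null. Neurogenic cells gave 0.65 and 0.64, and horizontal cells 0.50 and 0.55, all called. Ganglion cells did not follow: 711 and 638 CPM for Bax het Atoh7 null, 825 and 607 CPM for double null, and 772 and 826 CPM for Bax null gave log2 differences of -0.22 and -0.14 that did not pass. In cones the values were 0.09 and 0.18, also below the threshold. Without Bax null replicate 1 the progenitor and horizontal calls in double null were lost (0.50 and 0.45, adjusted p = 0.0627 and 0.14), and the horizontal call in Bax het Atoh7 null was lost without any 1 of the 4 libraries of its groups (adjusted p from 0.0546 to 0.187). DESeq2 also did not call the latter (0.47, adjusted p = 0.0821), and the horizontal call in double null was lost with cells of shared barcodes left out (0.47, adjusted p = 0.0535).

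Aldoa (ENSMUSG00000030695, chr7:126795234-126800751, minus strand) encodes aldolase, which splits a sugar bisphosphate in the middle of glycolysis. In progenitors it had 388 and 365 CPM for Bax het Atoh7 null, 417 and 311 CPM for double null, and 439 and 475 CPM for Bax null. Aldoa thus stood highest in the Bax null pair, unlike Slc2a1 and Ldha, though the progenitor differences of -0.27 and -0.35 did not pass (adjusted p = 0.114 and 0.052). It passed in ganglion cells, where the levels were 319 and 337 CPM, 381 and 265 CPM, and 502 and 526 CPM in the same order. The ganglion differences were -0.62 (SE 0.14, adjusted p = 0.00269) and -0.65 (SE 0.14, adjusted p = 0.00177). With library totals in place of TMM they were -0.13 and -0.05 (adjusted p = 0.391 and 0.754). The matrix also lists Aldoart1 and Aldoart2, retrogene copies of Aldoa that reads could be shared with.

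Pfkfb3 (ENSMUSG00000026773, chr2:11471433-11554077, minus strand) encodes an enzyme whose sugar bisphosphate product strongly activates phosphofructokinase and so speeds glycolysis. It was a rare transcript: progenitors had 4.17 and 3.43 CPM for Bax het Atoh7 null, 6.94 and 4.36 CPM for double null, and 3.81 and 3.0 CPM for Bax null. Against Bax null it was called in double null in progenitors (0.74, SE 0.24, adjusted p = 0.0252), neurogenic cells (0.85, adjusted p = 0.0477) and ganglion cells (0.67, adjusted p = 0.0409). In neurogenic cells the libraries of the 2 groups overlapped, at 9.44 and 4.38 CPM against 3.45 and 4.40 CPM. All 3 calls were lost without the library labelled double null replicate 1, where the values were 0.33, 0.12 and 0.27 (adjusted p = 0.286, 0.811 and 0.537), and without Bax null replicate 2 (adjusted p = 0.164, 0.0891 and 0.145). The neurogenic call was lost without any 1 of the 6 libraries but double null replicate 2, and the ganglion call also without Bax null replicate 1 (adjusted p = 0.0762). DESeq2 did not call the neurogenic and ganglion results (adjusted p = 0.138 and 0.172), and counts thinned to equal totals lost all 3 (adjusted p = 0.0887, 0.237 and 0.315). In Bax het Atoh7 null none of the 3 passed, at 0.17, 0.27 and 0.24.

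Pdk1 (ENSMUSG00000006494, chr2:71873224-71903858, plus strand) encodes a kinase that shuts pyruvate out of the mitochondrion by switching off pyruvate dehydrogenase. In progenitors it had 41.8 and 43.2 CPM for Bax het Atoh7 null, 51.4 and 35.2 CPM for double null, and 20.6 and 21.9 CPM for Bax null. Both differences were close to 2-fold, at 1.01 (SE 0.15, adjusted p = 0.000542) and 1.02 (SE 0.15, adjusted p = 0.00049). Neurogenic cells gave 0.96 and 1.1, cones 1.71 and 1.43, and horizontal cells 1.49 and 1.37, all called, although cones and horizontal cells rest on 4 to 36 UMIs per library. In cones the call was lost without the library labelled double null replicate 1 (0.84, adjusted p = 0.389), Bax het Atoh7 null replicate 2 (1.16, adjusted p = 0.181), Bax null replicate 1 (1.27 and 0.99, adjusted p = 0.168 and 0.314) or, for double null, Bax null replicate 2 (1.96, adjusted p = 0.0753). In horizontal cells it was lost without Bax null replicate 2 (1.18 and 1.05, adjusted p = 0.113 and 0.17), the library labelled double null replicate 1 (1.01, adjusted p = 0.202) or Bax het Atoh7 null replicate 2 (1.31, adjusted p = 0.0954). DESeq2 called none of these 4 (adjusted p from 0.0776 to 0.183). In ganglion cells it passed for Bax het Atoh7 null (0.76, SE 0.16, adjusted p = 0.00214, and 0.0501 with counts thinned to equal totals) and not for double null (0.41, SE 0.17, adjusted p = 0.0599). The difference between those 2 groups in ganglion cells did not pass either (-0.35, SE 0.19, adjusted p = 0.469).

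Bnip3 (ENSMUSG00000078566, chr7:138890836-138909519, minus strand) encodes a mitochondrial outer membrane protein that marks mitochondria for autophagy. Progenitors had 79.1 and 75.5 CPM for Bax het Atoh7 null, 72.3 and 64.6 CPM for double null, and 49.2 and 46.4 CPM for Bax null. The log2 differences were 0.70 (SE 0.09, adjusted p = 0.000173) and 0.50 (SE 0.09, adjusted p = 0.0011), and in neurogenic cells 0.61 and 0.61. Ganglion cells had 68.0 and 74.0 CPM, 80.0 and 63.8 CPM, and 77.0 and 74.1 CPM in the same order, with no call at -0.06 and -0.05. Cones (0.13 and -0.28) and horizontal cells (0.37 and 0.36) were not called. Bnip3 therefore passed in progenitors and neurogenic cells, as Ldha did.

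Ndufa4l2 (ENSMUSG00000040280, chr10:127514967-127517154, plus strand) encodes a mitochondrial protein that is induced through HIF and lowers the activity of respiratory complex I. It was chosen for its differences between libraries, and what follows is a description. Progenitors had 213 and 198 CPM for Bax het Atoh7 null, 220.3 and 177 CPM for double null, and 120 and 124 CPM for Bax null. Neurogenic cells had 144 and 132 CPM, 179 and 106 CPM, and 63.0 and 75.1 CPM, and ganglion cells 49.3 and 38.3 CPM, 58.2 and 26.2 CPM, and 14.8 and 16.6 CPM. Both Bax null libraries were the lowest in each of the 5 types. The ratio of group means of double null to Bax null was 1.63 in progenitors, 2.06 in neurogenic cells and 2.69 in ganglion cells, and that of Bax het Atoh7 null was 1.69, 2.0 and 2.79. In cones the Bax null pair held 2 and 6 UMIs in all, or 1.73 and 5.82 CPM, against 15.7 to 34.5 CPM in the other 4. Ndufa4l2 overlaps Shmt2 on the other strand.

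Egln3 (ENSMUSG00000035105, chr12:54178981-54203860, minus strand) encodes the prolyl hydroxylase PHD3, at once a HIF target and a brake on HIF. Progenitors had 4.97 and 3.59 CPM for Bax het Atoh7 null, 7.37 and 5.32 CPM for double null, and 2.96 and 3.04 CPM for Bax null. The progenitor difference passed for double null (1.08, SE 0.21, adjusted p = 0.00231) and not for Bax het Atoh7 null (0.53, SE 0.23, adjusted p = 0.0754). Neurogenic cells had 2.48 and 3.26 CPM, 4.49 and 4.38 CPM, and 5.6 and 3.81 CPM, with no call at -0.68 and -0.07. Egln3 was at 0 to 2.34 CPM in cones, ganglion and horizontal cells and did not pass the filter on low counts there.

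Vegfa (ENSMUSG00000023951, chr17:46016993-46032369, minus strand) encodes the growth factor that draws vessels toward tissue short of oxygen. It went the other way from most members. Progenitors had 8.64 and 8.65 CPM for Bax het Atoh7 null, 9.41 and 5.19 CPM for double null, and 13.4 and 14.2 CPM for Bax null, so that the Bax null pair was highest. Progenitor differences were -0.67 (SE 0.20, adjusted p = 0.0201) and -0.90 (SE 0.21, adjusted p = 0.00524). Neurogenic cells gave -0.85 (SE 0.26, adjusted p = 0.018) and -1.31 (SE 0.28, adjusted p = 0.00227), and ganglion cells -0.26 and -0.46, not called. With library totals the progenitor values were -0.13 and -0.28 (adjusted p = 0.535 and 0.197), and the neurogenic value in Bax het Atoh7 null was -0.34 (adjusted p = 0.249). The progenitor call in Bax het Atoh7 null was also lost without any 1 of the 4 libraries of its groups (adjusted p from 0.0557 to 0.0979), and the neurogenic one without 3 of them, Bax het Atoh7 null replicate 1, replicate 2 and Bax null replicate 2 (adjusted p = 0.0556, 0.12 and 0.111).

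Ankrd37 (ENSMUSG00000050914, chr8:45996902-46005707, minus strand) encodes an ankyrin repeat protein that is induced in low oxygen. It was also chosen for its differences, and its levels are a description. Progenitors had 27.6 and 27.5 CPM for Bax het Atoh7 null, 41.0 and 35.4 CPM for double null, and 29.0 and 29.5 CPM for Bax null. Ganglion cells had 37.8 and 42.3 CPM, 56.1 and 50.9 CPM, and 67.6 and 71.6 CPM in the same order. Both double null libraries were above both Bax het Atoh7 null libraries in all 5 types, while the place of the Bax null pair changed from the level of Bax het Atoh7 null in progenitors to the top in ganglion and horizontal cells. With library totals the progenitor levels were 28.0 and 27.9 CPM, 42.1 and 39.3 CPM, and 20.4 and 20.4 CPM, so the order of Bax het Atoh7 null and Bax null in progenitors turns with the scaling. So does the place of the Bax null pair in ganglion cells, at 51.9 and 53.8 CPM against 64.5 and 60.6 CPM for double null, and in horizontal cells the libraries then overlap, at 40.5 and 50.3 CPM against 42.7 and 48.4 CPM. Ankrd37 overlaps Ufsp2 and Lrp2bp on the other strand, and whether counting used the strand is not given in the sources used here.

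The comparison of the 2 Atoh7 null groups, which differ at Bax by their labels, showed no call among the members. Of 33 tests 0 passed by edgeR, where 1.86% of all tests did, 4 had an unadjusted p under 0.05, and DESeq2 called 0. The log2 difference was under 0.5 in size in 29 of the 33 tests, and the largest was 0.61 (SE 0.34) for Egln3 in neurogenic cells. Slc2a1 in progenitors differed by 0.01 (SE 0.10) and Ldha by -0.18 (SE 0.11). Without the library labelled double null replicate 1, whose Bax level is above that of its partner, 2 tests passed, Vegfa in progenitors (-0.76, adjusted p = 0.0269) and in neurogenic cells (-1.33, adjusted p = 0.0455). Vegfa in that library was 9.41 CPM in progenitors and 5.19 CPM in its partner.

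Whether a member's balance between cell types differed between groups was tested within libraries, as the ratio of one cell type to progenitors. A factor that scales a gene alike in all types of a library cancels there. An amount added to every type, such as free RNA, does not cancel, and its part was not tested. In double null against Bax null, 8 of 24 such tests passed by edgeR, against 9.65% of all tests, and in ganglion cells 5 of 8 against 17.1%. For Bax het Atoh7 null over Bax null, 5 of 24 passed against 9.92%, with 3 of 8 in ganglion cells against 16.5%. Between the 2 Atoh7 null groups 0 of 24 passed where 0.0459% of all tests did, and 7 had an unadjusted p under 0.05; no other tool was run on this test. The filter here was applied over all 4 cell types together, so the 24 include tests on very few UMIs, such as Egln3 in ganglion cells and cones.

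Ldha showed the clearest change of balance. Its ganglion level was 0.860 and 0.879 of the progenitor level in the Bax null libraries, 0.587 and 0.470 in double null, and 0.446 and 0.457 in Bax het Atoh7 null. The ganglion level of Ldha relative to progenitors of the same library was thus lower in the Atoh7 null groups than in Bax null. The log2 differences were -0.92 and -0.65 (edgeR adjusted p = 8.48e-15 and 7.31e-10). The ganglion level itself was not called (-0.22 and -0.14), while the progenitor level was higher (0.71 and 0.53). Bnip3 moved in the same direction: ganglion cells had 1.56 and 1.60 times the progenitor level in Bax null, 1.11 and 0.987 times in double null, and 0.860 and 0.980 times in Bax het Atoh7 null (log2 differences of -0.74 and -0.52, adjusted p = 1.63e-08 and 2.65e-05). Aldoa followed with 1.14 and 1.11 times in Bax null, 0.914 and 0.853 times in double null, and 0.823 and 0.924 times in Bax het Atoh7 null (-0.33 and -0.28, adjusted p = 0.000377 and 0.00301). The ganglion level of Bnip3 itself was also not called (-0.06 and -0.05), while its progenitor level was higher (0.70 and 0.50). Aldoa was itself lower in ganglion cells (-0.62 and -0.65). These 6 within-library results kept their call under every 1 of 11 alternative settings.

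Slc2a1 and Egln3 behaved differently from those 3. Slc2a1 in ganglion cells was 0.324 and 0.281 of the progenitor level in Bax null, 0.434 and 0.352 in double null and 0.362 and 0.285 in Bax het Atoh7 null. The difference from Bax null was 0.44 (adjusted p = 0.0027) for double null and did not pass for Bax het Atoh7 null (0.11, SE 0.12, adjusted p = 0.606). The call was lost without Bax null replicate 2 (0.33, adjusted p = 0.109) or without the library labelled double null replicate 1 (0.28, adjusted p = 0.0985). Egln3 in neurogenic cells was 1.89 and 1.25 times the progenitor level in Bax null, 0.609 and 0.824 times in double null, and 0.499 and 0.907 times in Bax het Atoh7 null, differences of -1.18 and -1.13 (adjusted p = 0.0244 and 0.0166). It rests on 14 to 47 neurogenic UMIs per library, and without Bax null replicate 1 neither passed (-0.88 and -0.83, adjusted p = 0.309 and 0.318). The same held without the library labelled double null replicate 1 for double null (-0.87, adjusted p = 0.252) or with cells of shared barcodes left out (-1.08, adjusted p = 0.0556), and without Bax het Atoh7 null replicate 1 for that group (-0.76, adjusted p = 0.434).

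**Figure D3:**
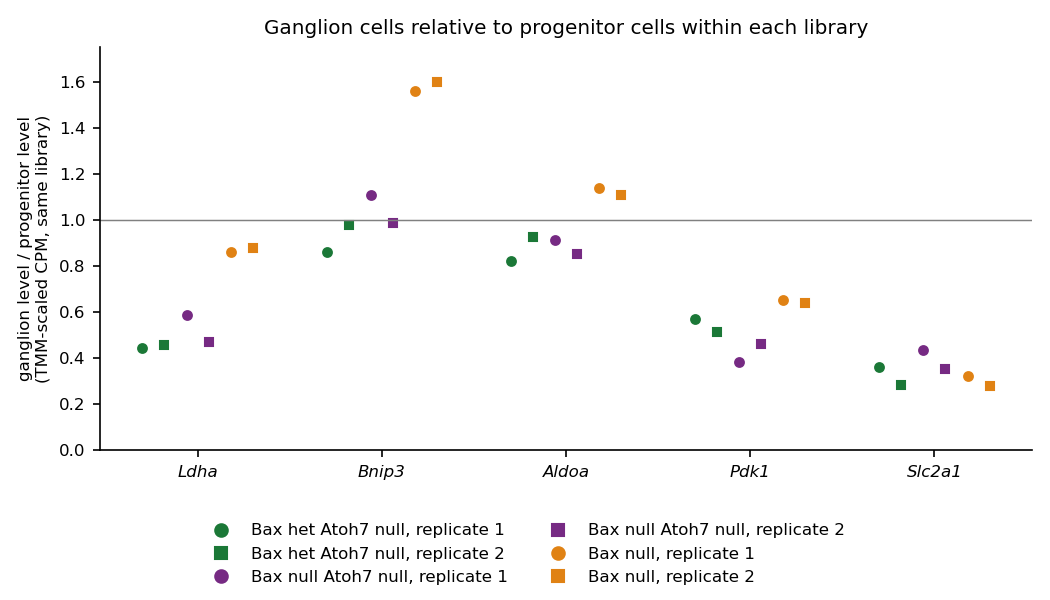
Ratio of the ganglion level to the progenitor level in each library for 5 members, coloured by genotype, with a line where both levels are equal. For Ldha the Bax null libraries sit at 0.860 and 0.879 and the other 4 between 0.446 and 0.587.

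Across cell types the members split into those highest in progenitors in every library and those highest elsewhere in some or all of them. The cell types were made by clustering these cells, so these orders are descriptions. Slc2a1, Ndufa4l2 and Pdk1 were highest in progenitors in 6 of 6 libraries. Over the 6 libraries Slc2a1 had a median of 448 CPM in progenitors (lowest 134, highest 503), 337 CPM in neurogenic cells, 230.1 CPM in horizontal cells, 150 CPM in ganglion cells and 77.7 CPM in cones. Ndufa4l2 had medians of 188 CPM in progenitors, 119 CPM in neurogenic cells, 40.1 CPM in horizontal cells, 32.2 CPM in ganglion cells and 21.7 CPM in cones. Its progenitor level was 3.79 to 8.09 times the ganglion level within a library, against 2.30 to 3.55 times for Slc2a1 and 1.53 to 2.6 times for Pdk1.

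The other members had no such order or another one. Aldoa and Egln3 were highest in progenitors in 4 libraries and Vegfa in 3. Pfkfb3 was highest in ganglion cells in 6 of 6 libraries, with a median of 8.65 CPM there and 3.99 CPM in progenitors. Ankrd37 was highest in cones in 3 libraries and in ganglion cells in 3, with medians of 50.7 and 53.5 CPM there and 29.2 CPM in progenitors, with no fixed order between these neuron types. Bnip3 was highest in neurogenic cells in 4 of 6 libraries, with a median of 81.0 CPM. Ldha was highest in progenitors in 3 libraries, in cones in 2 and in neurogenic cells in 1, with medians of 1343, 1118 and 1220 CPM in those types and ranges that overlap. Horizontal cells had the lowest median of Ldha, 516 CPM, and of Aldoa, 245 CPM. Horizontal cells also had the highest sums of 2 vascular marker lists, endothelial at 227 to 315 CPM and mural at 197 to 278 CPM. The other types had at most 90.3 and 35.7 CPM. Over all cells, 6 to 8 of the 8 markers of each list were detected in a library. Among those at 0, Cdh5 of the endothelial list had no UMIs in any library but Bax null replicate 2. Rgs5 of the mural list had none in Bax het Atoh7 null replicate 2 and in both Bax null libraries. Which markers make up the sums in horizontal cells is not given here. The sums are not read as a sign of vascular cells or of their absence, and their part in these levels was not tested.

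**Figure D4:**
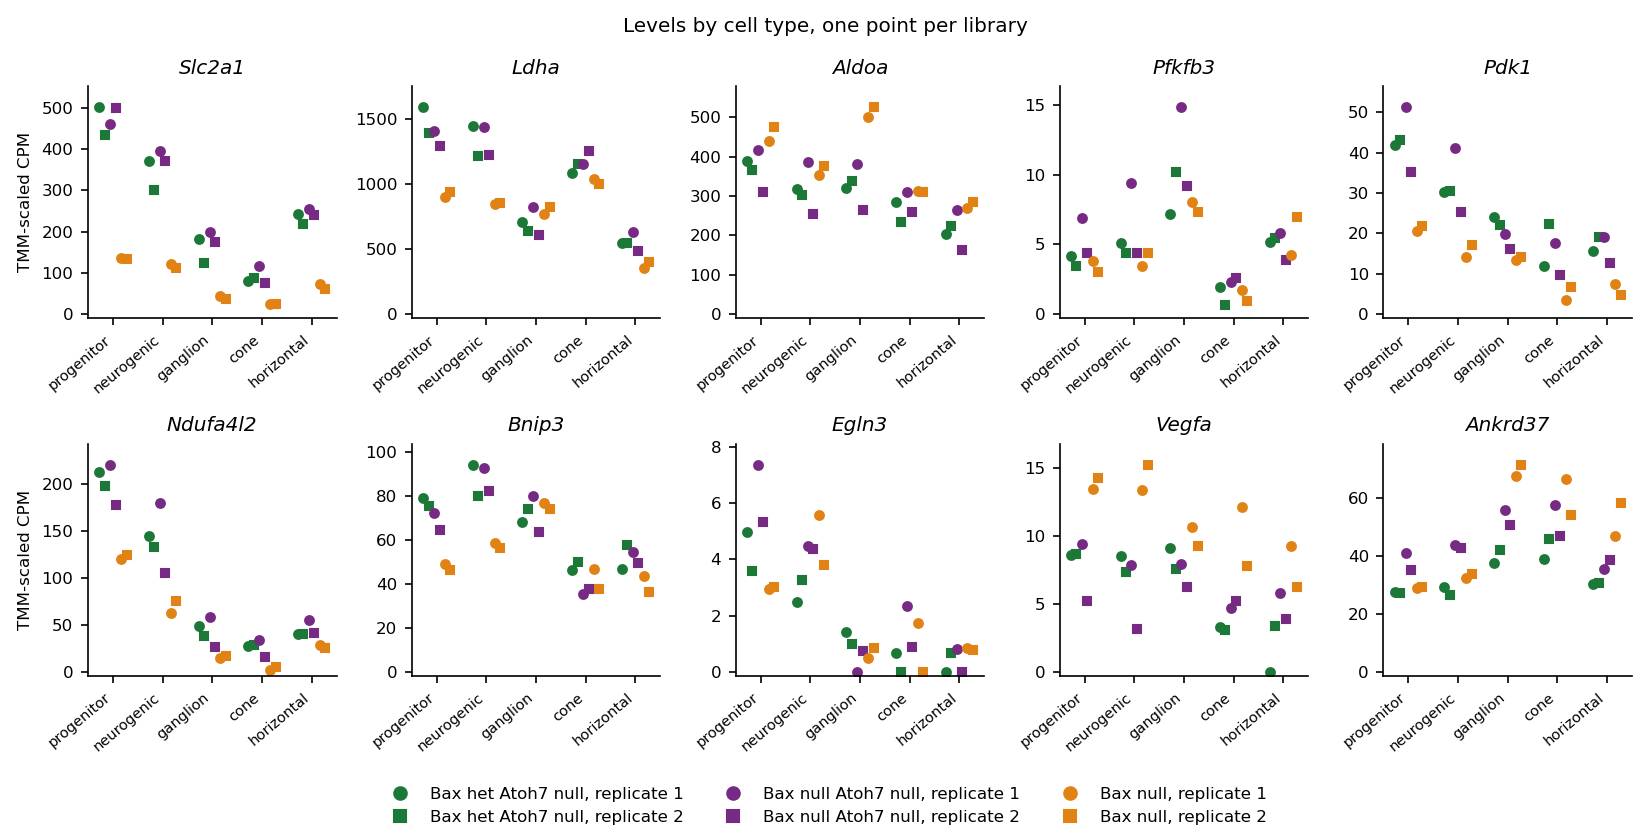
Level of each member in the 5 cell types, 1 point per library coloured by genotype, in CPM after TMM scaling. Slc2a1, Ndufa4l2 and Pdk1 are highest in progenitors in 6 of 6 libraries, and Pfkfb3 in ganglion cells in 6 of 6.

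The share of cells with at least 1 UMI followed the same pattern once depth was made equal. With each cell thinned to 1500 UMIs and shallower cells left out, Slc2a1 was seen in 51.8% and 45.9% of progenitors in Bax het Atoh7 null, 48.3% and 52.3% in double null, and 13.5% and 13.2% in Bax null. Before thinning the shares were 72.7% and 61.4%, 59.3% and 59.6%, and 42.3% and 44.1%. Ndufa4l2 was seen after thinning in 25.2% and 23.4%, 24.8% and 20.2%, and 11.2% and 11.7% of progenitors, and before thinning in 38.8% and 32.6%, 31.8% and 25.8%, and 29.4% and 32.5%. At this matched depth both genes were seen in a smaller share of Bax null progenitors than in each of the other 4 libraries. Before thinning Ndufa4l2 showed no such order. Thinning to a fixed number of UMIs works as library totals do, so these shares are not relative to the bulk of genes. With library totals the median of all genes in progenitors was 0.54 (log2) above Bax null in Bax het Atoh7 null and 0.64 in double null. A share over all genes is not given here. Between 178 and 2632 progenitors per library were too shallow to enter. In cones, the type with the lowest level, Ndufa4l2 was seen in 0.309% (95% Wilson interval 0.0545 to 1.73) and 0.80% (0.220 to 2.87) of cells in Bax null and in 2.99% to 5.67% in the other 4 libraries. Free RNA can give such low shares, so those in cones are not read as expression. The intervals cover counting error only.

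Other genes of these pathways moved in both directions. Of 31 further HIF targets, 29 were tested in progenitors: 15 were higher and 4 lower in double null than in Bax null, and 13 higher and 6 lower in Bax het Atoh7 null, with medians of 0.47 and 0.31 against 0.01 and 0.00 for all genes. Of all genes tested in progenitors 26.8% were higher and 27.1% lower in the first comparison and 26.6% and 26.5% in the other. Slc16a3, the lactate exporter MCT4, had 58.5 and 47.8 CPM for Bax het Atoh7 null, 63.9 and 54.1 CPM for double null, and 15.1 and 15.7 CPM for Bax null, with log2 differences of 1.80 and 1.92. It thus changed by about as much as Slc2a1. Ddit4, an inhibitor of the growth regulator mTORC1, rose by 1.34 and 1.51, and Ndrg1, a stress-induced gene, by 1.5 and 1.41. The mitochondrial genes Higd1a and Bnip3l were lower, Higd1a at -1.1 in double null (210.0 and 141 against 371 and 373 CPM) and Bnip3l at -0.96 in Bax het Atoh7 null (169 and 182 against 344 and 345 CPM). Bnip3l and Bnip3 are close relatives in mitophagy, and in Bax het Atoh7 null progenitors they were called in opposite directions.

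Of 27 further glycolysis enzymes and carriers, 26 were tested in progenitors, with 11 higher and 6 lower in double null and 11 higher and 5 lower in Bax het Atoh7 null. The medians were 0.28 and 0.35 in that order, against 0.01 and 0.00 for all genes. Over all genes tested there, 26.8% were higher and 27.1% lower in double null, and 26.6% and 26.5% in Bax het Atoh7 null. Pfkl, a phosphofructokinase, had 131 and 126 CPM for Bax het Atoh7 null, 131 and 112 CPM for double null, and 57.9 and 52.1 CPM for Bax null, or 1.23 and 1.12 higher. Pgk1, which makes the first ATP of glycolysis, rose by 0.93 in Bax het Atoh7 null. Its level was also higher in double null, at 55.6 and 51.4 against 21.7 and 31.6 CPM. Hk2, a hexokinase, fell by 1.34 in double null, at 38.9 and 16.8 against 68.9 and 73.4 CPM. In Bax het Atoh7 null Hk2 was at 54.3 and 39.5 CPM, also below Bax null. Pgam1, phosphoglycerate mutase, stood at 681 and 669 CPM for Bax null and at 1.52 to 1.86 CPM in the other 4 libraries. Mpc1, a subunit of the mitochondrial pyruvate carrier, stood at 102 and 113 CPM for Bax null and at 0.552 to 1.22 CPM in the other 4. A gene of central metabolism near 0 in 4 libraries is listed here with its values, and how each library was counted was not tested.

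Of 17 genes of oxygen sensing and the HIF subunits, 16 were tested in progenitors, with 5 higher and 6 lower in double null and 3 higher and 7 lower in Bax het Atoh7 null. The shares over all genes in progenitors were 26.8% higher and 27.1% lower in double null, and 26.6% and 26.5% in Bax het Atoh7 null. The medians of 0.05 and -0.07, in that order, lay near that of all genes. Hif1a, the oxygen-regulated subunit, had 197 and 180.0 CPM for Bax het Atoh7 null against 120 and 124 CPM for Bax null (0.63, SE 0.08, adjusted p = 0.000215). Vhl, which marks HIF for destruction, rose by 0.82 and 0.70. Its partner Tceb2 (elongin B) was lower at -1.03 and -1.70, with 619 and 663 CPM, 508 and 309 CPM, and 1310.0 and 1320.0 CPM for Bax het Atoh7 null, double null and Bax null. Rbx1 fell by 0.91 in double null, Hsp90ab1 rose by 0.54 there, and Cul2 rose by 0.57 in Bax het Atoh7 null. The other Atoh7 null group lay on the same side of Bax null for each gene given for 1 group. In double null Hif1a was at 180 and 176 CPM, and Cul2 at 19.9 and 22.6 against 14.2 and 17.1 CPM. In Bax het Atoh7 null Rbx1 was at 623 and 591 against 889 and 888 CPM, and Hsp90ab1 at 5110 and 4290 against 4050 and 4110 CPM.

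Genes listed for dissociation stress and RNA quality moved in both directions in the same comparisons. Of these 15 genes 14 were tested in progenitors. In double null 4 were higher and 9 lower, and in Bax het Atoh7 null 4 were higher and 8 lower. The medians were -0.60 and -0.37. Of all genes tested in progenitors 26.8% were higher and 27.1% lower in double null, and 26.6% and 26.5% in Bax het Atoh7 null. The immediate early gene Egr1 had 80.5 and 49.2 CPM for Bax het Atoh7 null, 76.9 and 60.1 CPM for double null, and 251 and 250 CPM for Bax null. Junb (-1.74 and -1.81) and Ier2 (-1.18 and -1.13) were also lower, and mt-Co1 was lower at -4.15 and -4.29. Other mitochondrial transcripts of the list differed less. For mt-Nd1 the Bax null pair had 5740 and 6010 CPM and the other 4 libraries 3270 to 3570 CPM. For mt-Cytb these levels were 5290 and 5400 CPM against 3870 to 4210 CPM. The levels of Jun and Fosb went the other way. Jun had 365 and 292 CPM for Bax het Atoh7 null, 330 and 367 CPM for double null, and 229 and 229 CPM for Bax null. Fosb had 49.0 and 30.5 CPM, 34.2 and 34.1 CPM, and 17.4 and 17.9 CPM in the same order. Red cell markers summed to 927 and 1110 CPM in the Bax null libraries and to 9.08 to 241 CPM in the other 4. The part of these differences in the members' values was not tested.

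Between the 2 Atoh7 null groups the lists held 5 calls in 366 gene-by-type tests (1.37%, against 1.86% over all tests), a share no higher than the background. They are named after their values were seen. In progenitors Bhlhe40, a HIF-induced repressor, was higher in double null (1.52 and 1.47 against 0.452 and 0.393 CPM, 1.78, SE 0.34, adjusted p = 0.0318). In ganglion cells Ddit4 was higher (101 and 97.3 against 76.1 and 63.7 CPM, adjusted p = 0.0395), as was the stress factor Atf3 (40.5 and 46.4 against 16.3 and 16.8 CPM, adjusted p = 0.00135). Tceb2 was lower in ganglion cells (480.0 and 326 against 653 and 724 CPM) and in horizontal cells (412 and 248 against 545 and 626 CPM).

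The profiles most like those of the 2 chosen genes differed. Over the 30 sums of 6 libraries by 5 cell types, the genes with the highest Pearson r to Ndufa4l2 among 5863 genes were Stxbp6 (0.951), Kdr (0.942), Vars (0.936), Mcm3 (0.936) and Gjc1 (0.935), and among the members Slc2a1 had 0.889 and Pdk1 0.877. Those most like Ankrd37 were Gabarap (0.866), Npc2 (0.849), Rabac1 (0.845), 1110032A03Rik (0.829) and Hilpda (0.827). Ankrd37 and Ndufa4l2 ran opposite to each other over these sums (r = -0.721). The sums share libraries, depth and cell types, so r is a description.

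Progenitors were not uniform for these genes. The authors' 142 clusters included 71 progenitor clusters with at least 200 cells. Relative to the progenitor mean of the same library, Ndufa4l2 ranged over them from -4.05 to 1.55 on the log2 scale, Ldha from -1.49 to 0.62 and Bnip3 from -2.32 to 1.35. Across the 71 clusters Ndufa4l2 and Ldha ran together (Pearson r = 0.945, and 0.745 to 0.927 within single libraries), as did Ndufa4l2 with Bnip3 (0.803, and 0.557 to 0.766 within libraries). With Slc2a1 (0.710, and 0.463 to 0.732) and Pdk1 (0.682, and 0.185 to 0.736) the relation was looser within libraries, and with Ankrd37 it was weak (0.451, and 0.057 to 0.475). The clusters were made from these cells, so the correlations are a description.

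**Figure D5:**
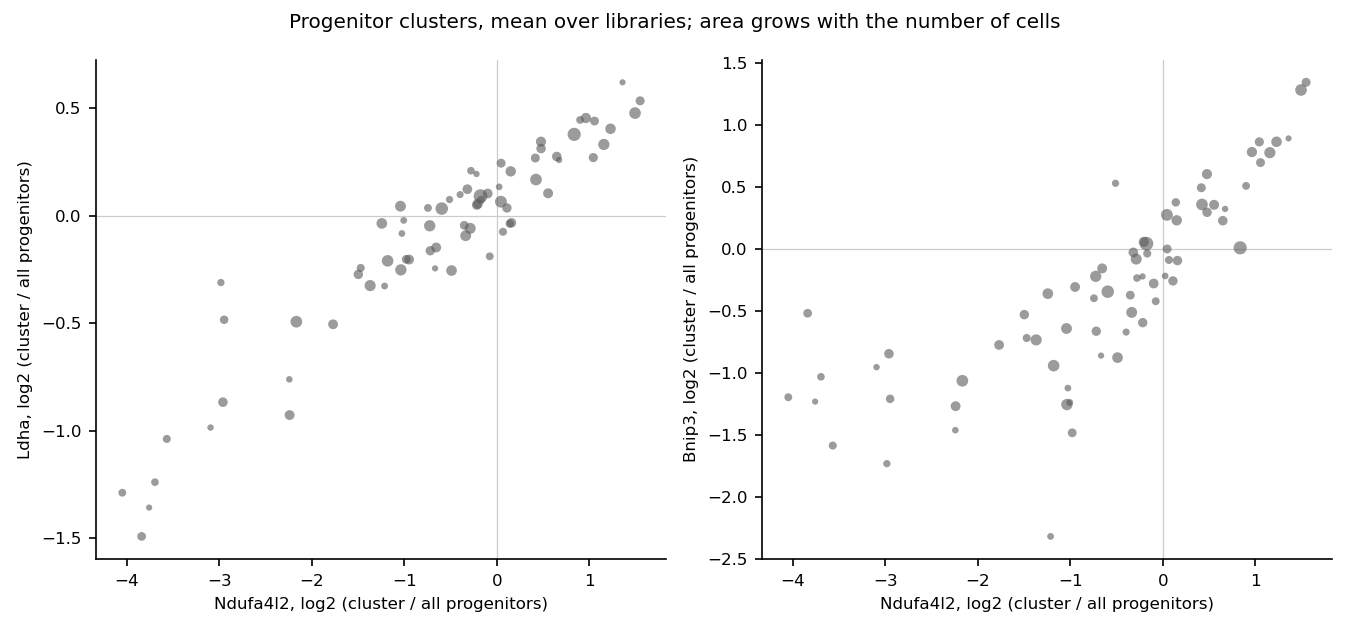
Level of Ldha and of Bnip3 against that of Ndufa4l2 in 71 progenitor clusters, each as log2 relative to all progenitors of the same library and averaged over libraries, with the point area growing with the number of cells. Ldha rises along the axis with r = 0.945, and 9 clusters lie below -2.5 for Ndufa4l2.

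Of these clusters 9, with 3234 cells, had Ndufa4l2 at or below -2.5, and 7, with 3824 cells, at or above 1, limits set after the values were seen. The nearest clusters inside and outside were at -2.95 and -2.24 for the low limit and at 1.04 and 0.96 for the high one. The high set held 2.75% and 2.47% of the progenitors of the Bax null libraries and 10.8% to 13.7% in the other 4. The clusters were formed with genes that differ between the groups, so these sizes are not read as a change in cell numbers, and their part in the group differences of the members was not tested. In the low set Ndufa4l2 stood at 0.0930 to 0.127 of the level in the library's other progenitors, Ldha at 0.393 to 0.569, Bnip3 at 0.393 to 0.567 and Ankrd37 at 0.615 to 0.801, lower in 6 of 6 libraries, and Pfkfb3 was lower in 5 of 6. The level of Ndufa4l2 itself follows from how the set was chosen. Egln3 went the other way, at 1.69 to 2.67 times the level of the other progenitors, higher in 6 of 6 libraries. Over 13418 genes, 13.4% were lower and 14.7% higher in all 6 libraries in that set. The low set was led by Ccnd2, a G1 cyclin, Igfbp5, Dazl, Wfdc1, Aldh1a1, a retinoic acid producing enzyme, H19, Ltbp1, Rhoj and Gja1. Beside Ndufa4l2 it was lowest in Espn, Cox4i2, a subunit of cytochrome oxidase known for hypoxic induction, Crabp1, Fgf3, Hes5, Mgarp and Kdr.

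In the high set Ndufa4l2, by which the set was chosen, stood at 2.56 to 3.02 times the level in the other progenitors. Among the members that did not define it Bnip3 stood at 1.91 to 2.65, Vegfa at 1.17 to 2.36, Ldha at 1.29 to 1.5 and Slc2a1 at 1.15 to 1.57 times, each higher in 6 of 6 libraries. Egln3 had no common direction there, at 0.493 to 1.94. Over all genes 8.44% were higher and 8.92% lower in all 6 libraries. Of 29 further HIF targets, 12 were higher in all 6 libraries and 0 lower, and of 26 glycolysis genes 10 were higher and 2 lower. The set was led by Cyp26a1, which breaks down retinoic acid, Espn, Asns, Slc16a3, Crabp1, Chac1 and Cox4i2, and was low in the mitotic genes Cdc20, Cenpa, Ube2c and Ccnb1. In the low set the same 2 lists gave 8 HIF targets lower and 2 higher, and 6 glycolysis genes lower and 6 higher, in all 6 libraries.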

How the data were processed

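Droplet 3′ single-cell libraries of E14 mouse retina were counted by the authors with Cell Ranger 1.2.1 on mm10, per the submitters' processing notes, and the deposited matrix holds raw UMI counts per gene and cell with the authors' cell types and clusters. The columns of 26078 cells from 2 libraries that are not among the samples here were not used. Library totals ranged from 22463515 to 66594431 UMIs. Authors' cell types were kept, no doublet caller was run, and leaving out the 5% of cells with the most UMIs was an alternative.

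UMIs were summed per library and cell type. Genes passing filterByExpr (minimum count 10) were scaled by TMM and tested with the quasi-likelihood test of edgeR 4.0.16 in R 4.3.3, with group as the only term and all 6 libraries in the fit; p-values were adjusted by Benjamini-Hochberg over all genes of a cell type and comparison, and calls are at adjusted p of 0.05. SE is the log2 difference divided by the root of F. Differences between cell types within a library were tested in 1 fit with library as a block. The scripts were tested on simulated data. Alternatives were DESeq2 1.42.0, RLE size factors, no filter, thinned counts, other cell filters, mitochondrial and ribosomal genes left out, a replicate block and each library left out. Leaving out cells with shared barcodes and using library totals were added after seeing the data.

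The 10 members and all gene lists were chosen with earlier results of these data known. Genes of a list were named in progenitors when called, with no overlap of the libraries and a group mean of at least 20 CPM on the higher side, up to 4 per comparison by size. Motif matches were counted in RefSeq windows (GRCm38.p6); gene positions are from GENCODE release 21. Ndufa4l2 has no window in that table.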

Additional observations from a re-analysis of the deposited data

Results flagged for a closer look

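The results here are those in which the difference between genotype groups was itself different between 2 cell types of the same libraries, by the edgeR test of that difference (log2, cell type minus progenitors, adjusted over all genes). Each value is relative to progenitors, so a change of the progenitor level enters it as much as one of the other type. None of these results was compared with an explanation.

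In ganglion cells, 5 members differed in double null against Bax null: Ldha by -0.65 (adjusted p = 7.31e-10), Bnip3 by -0.52 (adjusted p = 2.65e-05), Aldoa by -0.28 (adjusted p = 0.00301), Pdk1 by -0.57 (adjusted p = 0.0296) and Slc2a1 by 0.44 (adjusted p = 0.0027). For Bax het Atoh7 null over Bax null, Ldha differed by -0.92 (adjusted p = 8.48e-15), Bnip3 by -0.74 (adjusted p = 1.63e-08) and Aldoa by -0.33 (adjusted p = 0.000377). Both comparisons use the same Bax null libraries. The ganglion level of Pdk1 was 0.652 and 0.641 of the progenitor level in Bax null and 0.384 and 0.461 in double null. That call was lost without Bax null replicate 1 (adjusted p = 0.0812), Bax null replicate 2 (adjusted p = 0.079) or the library labelled double null replicate 1 (-0.43, adjusted p = 0.342).

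In cones, Ldha differed by -0.28 (adjusted p = 0.0278) in double null and by -0.55 (adjusted p = 2.52e-06) in Bax het Atoh7 null. Its cone level was 1.16 and 1.06 times the progenitor level in Bax null, 0.819 and 0.973 times in double null, and 0.680 and 0.827 times in Bax het Atoh7 null. The first of these was lost without Bax null replicate 1 (adjusted p = 0.241) or the library labelled double null replicate 1 (-0.18, adjusted p = 0.284). Bnip3 in cones differed by -0.72 (adjusted p = 0.0311) in double null. It was lost without Bax null replicate 1 (adjusted p = 0.345), Bax null replicate 2 (adjusted p = 0.0862) or the library labelled double null replicate 1 (adjusted p = 0.342).

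In neurogenic cells, Egln3 differed by -1.13 (adjusted p = 0.0166) in double null and by -1.18 (adjusted p = 0.0244) in Bax het Atoh7 null, on few UMIs.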

How the results depend on the processing

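Of 39 called member results 23 kept their call under all 17 alternatives, and of 13 within-library results 7 did so under all 11; none changed direction while called. Leaving out 1 library gave 16 to 21 calls in double null against Bax null, 14 to 26 for Bax het Atoh7 null over Bax null, and 0 to 2 between the 2 Atoh7 null groups. Within libraries it gave 3 to 10, 4 to 6 and 0 to 2 calls in the same order: 4 without Bax null replicate 1, 5 without replicate 2 and 3 without the library labelled double null replicate 1 in the first. No filter on low counts gave 2 within-library calls between the Atoh7 null groups, both Ldha (0.26 in ganglion cells and 0.26 in cones). Leaving out cells with shared barcodes, added after seeing the data, gave 21, 19 and 0 calls and 7 within-library calls in place of 8 for double null against Bax null, and library totals, also added then, 26, 22 and 0. DESeq2 gave 18, 15 and 0 and counts thinned to equal totals 17, 15 and 0, and each lost 7 of the 39. Those called least often were Pfkfb3 in neurogenic cells (7 of 17), Pfkfb3 in ganglion cells (10 of 17), Pdk1 in cones of double null (11 of 17) and Ldha in horizontal cells of Bax het Atoh7 null (11 of 17). Deviations of libraries with the same replicate number correlated at 0.287 between the 2 Atoh7 null groups. With Bax null they correlated at 0.015 for Bax het Atoh7 null and -0.054 for double null. Red cell markers were also higher in replicate 1 of both Atoh7 null groups (112 and 241 CPM) than in replicate 2 (27.9 and 9.08 CPM). Whether replicate numbers mark a batch was not tested. With the replicate block the calls were 21, 19 and 0. With 2 libraries a group, a permutation test cannot go below 0.33, so single values rest on the spread shared across genes. Few UMIs limit Egln3, Pfkfb3 and Vegfa, and no lower level in Bax null can be told apart from how those libraries were made.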
